A study of Mus musculus with 56 samples.

Results

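Visceral adipose tissue (VAT) of mice under daytime-restricted feeding (DRF) was compared at Zeitgeber time (ZT) 8, the middle of the feeding phase, and at ZT20, the middle of the fasting phase, 12 h later. The 8 libraries were the 4 labelled DRF ZT8 and the 4 labelled DRF ZT20, out of 56 polyA RNA-seq libraries from 14 groups, and they were chosen by regimen and time alone. All mice were 9-week-old C57BL/6J females kept on a 12 h:12 h light-dark cycle with chow, and had been given food only by day (DRF) or only by night (NRF, the reference regimen) for 7 days. Under DRF the fed time point lies in the light and the fasted one in the dark, so a difference between them holds both feeding and clock time. The 4 NRF libraries at ZT8, which is fasting there, and the 4 at ZT20, which is feeding, were used to set these apart, and DRF ZT4 and ZT16, 4 libraries each, gave another fed and another fasted time point from other libraries. The labels do not say that each library is 1 animal, so p-values measure the spread between these libraries.

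White adipose tissue stores triglyceride while food comes in and releases fatty acids and glycerol when it does not. Insulin, released on feeding, drives glucose uptake, lipid synthesis and sterol synthesis in adipocytes and restrains lipolysis, while fasting raises catecholamine tone and lifts the insulin-restrained FOXO factors. The molecular clock runs alongside: CLOCK and BMAL1 (Arntl) switch on Per, Cry and Nr1d genes through E-boxes, and the products of these genes repress the activators in turn.

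Values are in CPM, counts of recovered reads scaled to the library size that underlies the deposited values, and differences are ZT8 minus ZT20 on the log2(CPM + 1) scale with their standard error (SE). Of 14381 genes with a mean of at least 1 CPM, 767 (5.33%) passed an adjusted p of 0.05 in limma with Benjamini-Hochberg adjustment, 367 (2.55%) of them higher at ZT8 and 400 (2.78%) lower. With library sizes from total reads the split was 486 and 306. At an unadjusted p under 0.05 there were 3170. The size of a called difference had a median of 0.78 and ran from 0.33 to 4.06, and 205 of the called genes changed by at least 1 log2 unit. The groups of 4 did not overlap in 2360 of the genes tested (16.4%). The number of calls depended on single libraries. It was 1440 without DRF ZT8 replicate 1 (10.0% of the genes, 5.17% higher and 4.84% lower), 307 without DRF ZT8 replicate 4, and 338, 207, 289 and 255 without DRF ZT20 replicates 1, 2, 3 and 4. Of the 56 genes that passed and met the naming rule, 47, 48 and 36 still passed without ZT8 replicates 2, 3 and 4, and 34, 30, 38 and 34 without ZT20 replicates 1, 2, 3 and 4, all in the same direction. For ZT8 replicate 1 no such count is read, since the rule for the largest rises and falls used the fit without it.

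DRF ZT8 replicate 1 stood apart from the other 7 libraries. In it 717 genes lay more than 1 log2 unit above all 7 others, against at most 19 in any other library, and its median correlation with its own group was 0.929, against 0.981 to 0.990 elsewhere. The 10 uterine epithelium markers summed to 688 CPM there, to 22.4 to 27.1 CPM in the other ZT8 libraries and to 20.5 to 33.6 CPM at ZT20. The 8 adipocyte markers summed to 11300 CPM against 25400 to 28600 and 27200 to 33300 CPM, the 6 smooth muscle markers to 1060 against 253 to 316 and 223 to 536 CPM, and the 7 proliferation markers to 376 against 67.5 to 106 and 79.0 to 130 CPM. None of these markers was at 0 over the 8 libraries, and no uterine, smooth muscle, proliferation or adipocyte marker passed the test. Several list counts and medians moved when this library was left out, as given beside those lists. Then 1 adipocyte marker was lower at ZT8, and still no uterine, smooth muscle or proliferation marker passed. The adipocyte median went from -0.43 to -0.09 without this library. Of the 767 called genes, 766 were called in the same direction without it. In bulk tissue, fewer cells of a type and less RNA per cell cannot be told apart. Recovered reads ran from 31165897 to 36834732 in the 8 libraries.

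The deepest fall was that of Pck1 (ENSMUSG00000027513, chr2:173153048-173159273, plus strand, GRCm38), the cytosolic phosphoenolpyruvate carboxykinase that makes glycerol 3-phosphate in fasted fat. Its ZT8 libraries held 40.5, 415, 133 and 82.8 CPM and its ZT20 libraries 1690, 2980, 1410 and 2120 CPM. Every ZT20 library was thus above every ZT8 library, although the ZT8 values spread widely among themselves. The difference was -4.06 ± 0.60 (SE, adjusted p = 0.0079), and -3.56 without replicate 1 of ZT8 (adjusted p = 0.0025).

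Next to it stood receptors for metabolites that hold lipolysis back. Hcar1, the lactate receptor, was at 16.7, 43.8, 25.3 and 29.6 CPM at ZT8 and at 153, 222, 139 and 171 CPM at ZT20 (difference -2.59 ± 0.26, adjusted p = 0.0020). Hcar2, the receptor for the ketone body 3-hydroxybutyrate, fell from 52.4, 76.3, 40.8 and 43.8 CPM at ZT20 to 5.73, 16.2, 10.1 and 11.6 CPM at ZT8 (-2.22 ± 0.29, adjusted p = 0.0048). Neither gene's groups overlapped. Hcar1 and Hcar2 are paralogs, and how the counting shared reads between them was not tested. Ffar4, a receptor for long-chain fatty acids, was lower as well (-1.42 ± 0.29, adjusted p = 0.026), which made 3 of 17 circulating-signal receptors tested lower and none higher, with a list median of -0.13. Without replicate 1 of ZT8 the counts were 3 lower and 3 higher. Over all genes tested 2.78% were lower with all 8 libraries.

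Angptl4 and Angptl8, a pair of secreted regulators of lipoprotein lipase that act in turn in the fasted and the fed state, moved in opposite directions. Angptl4 was at 61.3, 143, 131 and 130 CPM at ZT8 and at 482, 608, 579 and 631 CPM at ZT20, with replicate 1 lowest in both groups. Its difference was -2.36 ± 0.25 (adjusted p = 0.0026). Angptl8 was at 135, 111, 376 and 237 CPM at ZT8 and at 39.0, 52.0, 79.1 and 30.8 CPM at ZT20, without overlap but with wide spread at ZT8 (2.0 ± 0.40, adjusted p = 0.024). These were the only called genes among 13 fatty acid uptake genes, whose median was -0.42. Without replicate 1 of ZT8 the median was -0.33, and 4 were lower and 1 higher.

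Of 20 fatty acid oxidation genes 2 were lower at ZT8, beside 2.78% of all genes tested, and none was higher. Cpt1a, the gate of fatty acid entry into mitochondria, was one of them (-0.38 ± 0.09, adjusted p = 0.035). The list median was -0.42, or -0.22 without replicate 1 of ZT8 (3 lower), and the beta-oxidation enzymes themselves did not pass the test, Acadm at -0.64 and Hadha at -0.58 for example.

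Among 13 lipolysis genes Pde3b and Adrb3 were lower at ZT8 and the other 11 did not pass, with a list median of -0.35 (-0.12 without replicate 1 of ZT8). Pde3b, the phosphodiesterase through which insulin lowers cyclic AMP, held 107, 224, 238 and 205 CPM at ZT8 and 498, 682, 516 and 521 CPM at ZT20 (-1.57 ± 0.25, adjusted p = 0.011). Adrb3, the beta3-adrenergic receptor, was at 98.6, 333, 153 and 186 CPM against 604, 501, 326 and 482 CPM, so its groups overlapped in 1 library each (-1.41 ± 0.34, adjusted p = 0.046, and up to 0.133 under the alternatives tried). The lipases did not pass: Lipe, hormone-sensitive lipase, was at -1.05 ± 0.34 (adjusted p = 0.11) and Pnpla2, adipose triglyceride lipase, at -0.64 (adjusted p = 0.29). Aqp7, the glycerol channel of adipocytes, was lower (-1.08 ± 0.25, adjusted p = 0.042) and was the other called member, with Pck1, of the 13 genes of glyceroneogenesis and pyruvate handling.

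**Figure D1:**
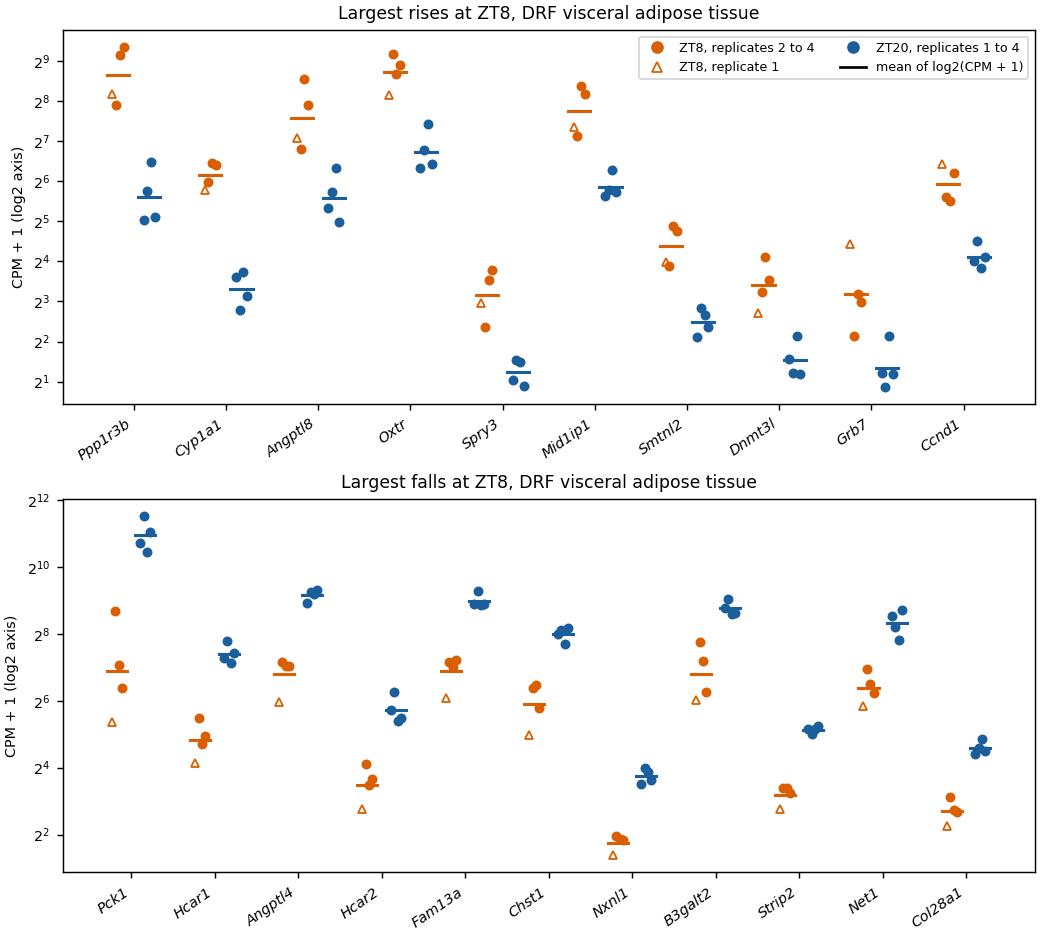
CPM + 1 on a log2 axis in each DRF library for the largest rises and the largest falls at ZT8 that met the naming rule, with the mean of log2(CPM + 1) as a bar. Orange marks ZT8, with replicate 1 as an open triangle, and blue marks ZT20; the rule required groups of 4 that do not overlap, and Pck1 shows the widest spread at ZT8.

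Of 20 genes of insulin signalling and FOXO targets 2 were lower at ZT8, 1 was higher and 17 did not pass, with a list median of -0.10. Irs2, the insulin receptor substrate that rises on fasting, held 11.2, 17.3, 16.5 and 17.7 CPM at ZT8 against 55.6, 69.9, 42.6 and 65.8 CPM at ZT20 (-1.83 ± 0.19, adjusted p = 0.0020). Txnip, an inhibitor of thioredoxin and of glucose uptake, fell from 1270, 1120, 988 and 1450 CPM to 262, 452, 374 and 417 CPM (-1.70 ± 0.21, adjusted p = 0.0039). Neither gene's groups overlapped. Akt1, a kinase of the insulin pathway, was slightly higher at ZT8 (0.48 ± 0.10, adjusted p = 0.030). Insr, Irs1 and Foxo1 were among those that did not pass.

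The remaining large falls were of mixed function. Fam13a, linked to body fat distribution in human genetics, held 67.4, 142, 129 and 149 CPM at ZT8 and 471, 616, 468 and 475 CPM at ZT20 (-2.10 ± 0.24, adjusted p = 0.0035). Chst1, a carbohydrate sulfotransferase (-2.09), Nxnl1, a thioredoxin-like protein (-1.99), B3galt2, a galactosyltransferase (-1.95), Strip2 (-1.94), Net1, an exchange factor for RhoA (-1.93), and Col28a1, a collagen chain (-1.89), had adjusted p-values between 0.00092 and 0.016. Cyp2e1, a cytochrome P450 of the endoplasmic reticulum that the liver marker list also holds, was at 639 to 1480 CPM at ZT8 and 3380 to 4660 CPM at ZT20 (-1.75 ± 0.31, adjusted p = 0.016). Alb, the defining liver transcript, lay at 15.9 to 56.0 CPM at ZT8 and 23.7 to 40.8 CPM at ZT20, with a difference of -0.07 ± 0.33 (adjusted p = 0.93).

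The largest rise at ZT8 was that of Ppp1r3b (ENSMUSG00000046794, chr8:35375739-35388139, plus strand, GRCm38), which brings protein phosphatase 1 to glycogen. It held 290, 237, 568 and 649 CPM at ZT8 and 31.7, 53.3, 88.3 and 33.7 CPM at ZT20. All ZT8 libraries lay above all ZT20 libraries, and the difference was 3.05 ± 0.40 (adjusted p = 0.0050). It was the only called gene of 17 for glucose uptake and glycogen, whose median was -0.01. Without replicate 1 of ZT8 the list had 2 higher and 1 lower, with a median of 0.05. The transporter Slc2a4 (GLUT4) was at 0.12 ± 0.30 (adjusted p = 0.86), and among 17 glycolysis genes only Pfkfb1, a phosphofructokinase-2 isoform, was called, and it was lower (-1.02 ± 0.19, adjusted p = 0.020). Without that library 2 glycolysis genes were higher and 1 was lower, and the median went from -0.14 to -0.02.

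Cyp1a1, the best known target of the aryl hydrocarbon receptor, followed with 54.1, 62.3, 86.2 and 84.2 CPM at ZT8 and 11.3, 5.92, 12.4 and 7.76 CPM at ZT20 (2.84 ± 0.23, adjusted p = 0.0012). Oxtr, the oxytocin receptor, rose from 78.9, 109, 170 and 84.6 CPM to 283, 579, 408 and 477 CPM (1.99 ± 0.28, adjusted p = 0.0066). Mid1ip1, a partner of acetyl-CoA carboxylase, held 163, 140, 330 and 289 CPM at ZT8 and 48.4, 54.1, 76.1 and 52.5 CPM at ZT20 (1.91 ± 0.28, adjusted p = 0.0074). In none of these did the groups overlap. Spry3 (1.93), Smtnl2 (1.89), Dnmt3l (1.87), Grb7, an adaptor protein (1.83), and Ccnd1, cyclin D1 (1.82), were among the largest rises. Of these Ccnd1 and Grb7 were highest in ZT8 replicate 1. Ccnd1 held 85.6 CPM there against 44.3 to 72.5 CPM in the other ZT8 libraries, and its difference was 1.65 without replicate 1. Grb7 held 20.8 CPM in that library against 3.40 to 8.06 CPM in the other ZT8 libraries. Its adjusted p was 0.0499 with that library and 0.025 without it, and it lost its call in 13 of 21 alternatives, with an adjusted p of up to 0.152. Grb7 was also at 49.9 CPM in DRF ZT0 replicate 4, where the uterine epithelium markers summed to 5720 CPM. The other DRF ZT0 libraries held 1.25 to 1.34 CPM of Grb7. The part of uterine tissue in its rise was not tested.

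Sterol genes were among the rises. Of 20 cholesterol synthesis genes 5 were higher at ZT8 and none lower (8 and none without replicate 1 of ZT8). Over all genes tested 2.55% were higher (5.17% without that library). Of the 20 differences 17 were positive, against 7632 of 14381 over all genes. The list median was 0.40 against 0.02 over all genes tested (0.60 for the list without replicate 1 of ZT8). Of 14 genes of sterol sensing and uptake 4 were higher and none lower, with a median of 0.11. Mvd, mevalonate diphosphate decarboxylase, held 68.2, 81.3, 105 and 142 CPM at ZT8 and 25.9, 25.8, 48.6 and 17.2 CPM at ZT20 (1.76 ± 0.31, adjusted p = 0.016). Sc5d, a late step of the pathway, held 363, 431, 740 and 870 CPM against 138, 205, 279 and 149 CPM (1.60 ± 0.32, adjusted p = 0.024). In both genes the groups were apart, and replicates 3 and 4 were highest at ZT8.

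Hsd17b7 (1.55 ± 0.27) and Sqle, squalene epoxidase (1.43 ± 0.27), were also higher, with adjusted p-values of 0.015 and 0.019. Several other members of the pathway did not move by much, Cyp51 at 0.03 and Fdft1 at 0.22 for example, neither of them called.

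Insig1, which retains the SREBP precursor in the endoplasmic reticulum, was at 547, 693, 896 and 1190 CPM against 210, 443, 447 and 205 CPM (1.39 ± 0.34, adjusted p = 0.047, and up to 0.189 under the alternatives tried). Srebf2, the factor that drives the pathway, changed less but with a narrow spread, 70.6, 72.1, 71.4 and 76.9 CPM against 47.5, 53.4, 51.9 and 48.2 CPM (0.53 ± 0.08, adjusted p = 0.011). Stard4, a carrier of free sterol, was called as well (0.93 ± 0.13, adjusted p = 0.0065). The targets of liver X receptors that export cholesterol, Abca1 (-0.03) and Abcg1 (0.13), did not pass.

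The RefSeq promoters (250 bases before to 50 after the start, GRCm38.p6, gene strand) were searched for 2 motifs because these genes moved together. Promoters of 5 of the 9 called sterol genes were in the table (Hsd17b7, Insig1, Mvd, Sc5d, Srebf2). The E-box CACGTG, whose 2 strands read the same, was in 3 of those 5 and in 6 of the 25 tested sterol genes with a promoter, against 7.15% of 32851 promoters. The sterol response element TCACNCCAC, on either strand, was in none of the 5 and in 1 of the 25, against 1.24% of promoters; no match says only that these letters are not in this window. The 3 promoters are shown with that of Ciart, a clock gene that also rose at ZT8 and holds the E-box 3 times. Capitals mark the E-box. They lie at chr1:169969156-169969455 (minus strand) for Hsd17b7, chr5:28071162-28071461 (plus strand) for Insig1, chr9:42264251-42264550 (minus strand) for Sc5d and chr3:95882179-95882478 (minus strand) for Ciart.
Hsd17b7: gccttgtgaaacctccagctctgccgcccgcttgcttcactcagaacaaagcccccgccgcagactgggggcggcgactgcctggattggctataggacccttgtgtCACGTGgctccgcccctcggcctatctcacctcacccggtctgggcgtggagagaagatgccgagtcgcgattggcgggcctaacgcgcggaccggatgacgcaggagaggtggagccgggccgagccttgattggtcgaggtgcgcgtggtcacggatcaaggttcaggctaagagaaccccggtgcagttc
Insig1: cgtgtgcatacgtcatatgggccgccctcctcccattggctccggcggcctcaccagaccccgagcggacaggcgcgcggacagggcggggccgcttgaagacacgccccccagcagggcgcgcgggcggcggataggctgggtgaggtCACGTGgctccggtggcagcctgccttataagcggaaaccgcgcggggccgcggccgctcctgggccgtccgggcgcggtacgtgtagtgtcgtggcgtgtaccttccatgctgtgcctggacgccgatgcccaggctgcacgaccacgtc
Sc5d: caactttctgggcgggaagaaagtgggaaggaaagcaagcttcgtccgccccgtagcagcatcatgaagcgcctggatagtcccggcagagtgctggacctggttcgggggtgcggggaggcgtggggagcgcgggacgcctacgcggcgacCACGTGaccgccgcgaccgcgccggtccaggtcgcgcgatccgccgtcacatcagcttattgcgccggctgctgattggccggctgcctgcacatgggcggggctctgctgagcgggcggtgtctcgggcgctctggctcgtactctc
Ciart: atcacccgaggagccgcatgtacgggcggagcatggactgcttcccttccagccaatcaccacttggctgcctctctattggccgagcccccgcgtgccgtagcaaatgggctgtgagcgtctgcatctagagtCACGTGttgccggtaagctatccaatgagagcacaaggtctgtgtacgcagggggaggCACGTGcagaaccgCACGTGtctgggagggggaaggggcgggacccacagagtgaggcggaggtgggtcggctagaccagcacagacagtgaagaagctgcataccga
The E-boxes start 143, 101 and 98 bases before the start in Hsd17b7, Insig1 and Sc5d, and 116, 58 and 44 bases before it in Ciart. A match is a description of the sequence and not of binding. In NRF, ZT20 minus ZT8, Ciart was at -1.55, while Hsd17b7, Insig1 and Sc5d were at 2.15, 2.13 and 2.20. Ciart was thus higher at ZT8 under both schedules, and these sterol genes were higher at the fed time point under both.

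None of 16 de novo lipogenesis genes passed the test, the list median was -0.06 and 7 of the 16 differences were positive. Fasn, fatty acid synthase, was among the most abundant transcripts of the tissue and held 14200, 25200, 26300 and 35500 CPM at ZT8 and 25800, 26100, 31600 and 20200 CPM at ZT20. Its groups overlapped throughout, with a difference of -0.09 and a 95% interval from -1.68 to 1.5, so that a rise and a fall were both within its error. It is 1 of 4 transcripts too abundant for the recovery of whole reads to be checked. Elovl6, the fatty acid elongase, was at 0.04 (95% interval -0.65 to 0.73) and Acaca, acetyl-CoA carboxylase, at -0.29 (-1.12 to 0.54). Scd2, a stearoyl-CoA desaturase, had the largest value of the list, 1.33 ± 0.37, with an adjusted p of 0.071 that became 0.029 without replicate 1 of ZT8. Without that library Scd2, Srebf1 (0.70) and Pnpla3 were called and the list median was 0.18. The median was also positive with library sizes from total reads (0.04) and with quantile normalization (0.24). None of 9 NADPH supply genes and none of 13 triglyceride synthesis genes passed. Without replicate 1 of ZT8 the latter had 1 higher and 1 lower, and their median went from 0.18 to 0.33.

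**Figure D2:**
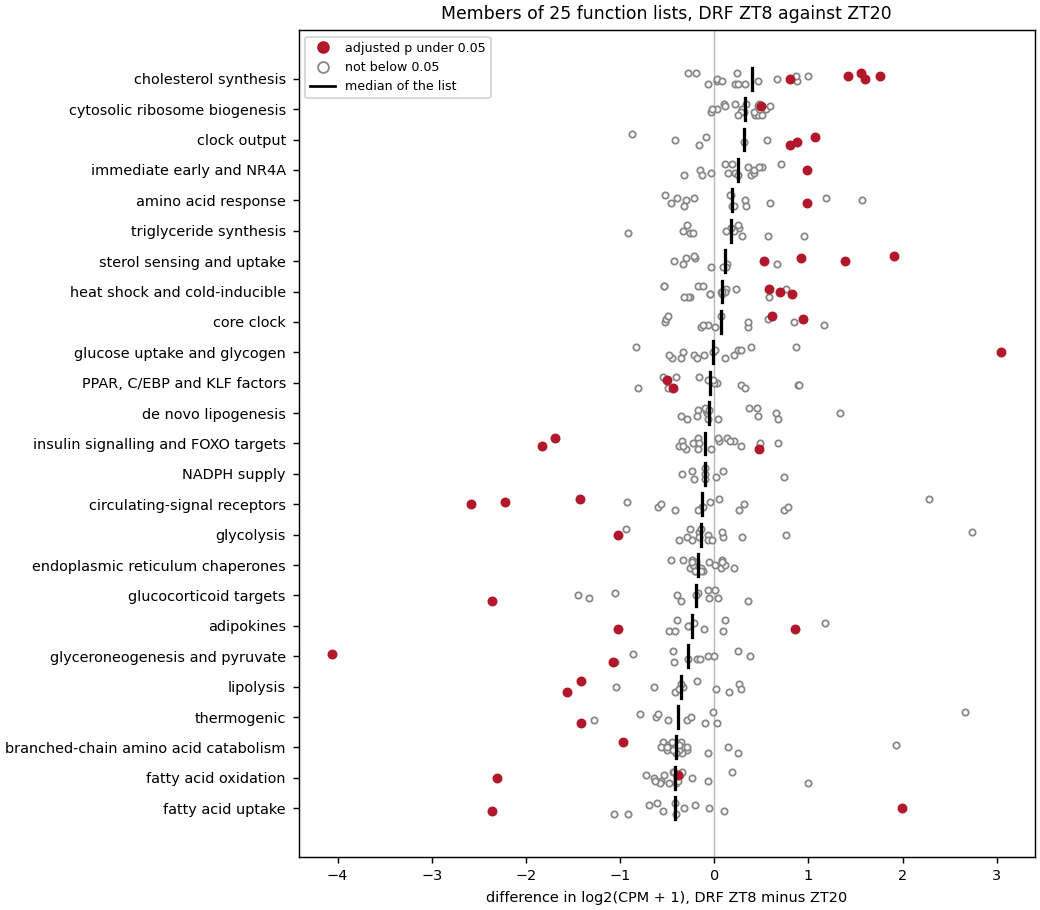
Difference in log2(CPM + 1), DRF ZT8 minus ZT20, for the tested members of 25 function lists, ordered by the list median (black bar), with called genes in red and the others open. Cholesterol synthesis has the highest median at 0.40 and fatty acid uptake the lowest at -0.42, while de novo lipogenesis sits at -0.06 with no called gene.

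Of 15 core clock genes Nr1d2 and Ciart were higher at ZT8 and none was lower, and of 9 clock output genes Dbp, Hlf and Nfil3 were higher and none was lower. Without replicate 1 of ZT8 the counts were 6 higher and 2 lower of 15, and 4 higher and 1 lower of 9. Nr1d2, which encodes the repressor REV-ERBβ, held 74.8, 62.6, 60.2 and 58.9 CPM at ZT8 and 42.5, 43.0, 41.6 and 38.1 CPM at ZT20 (0.62 ± 0.10, adjusted p = 0.012). Dbp, a PAR bZIP factor that E-boxes drive, held 48.1, 57.7, 63.5 and 61.5 CPM against 28.2, 30, 33.5 and 38.9 CPM (0.80 ± 0.13, adjusted p = 0.011). The groups were apart in both. Hlf, of the same family, differed by 0.88 ± 0.18 (adjusted p = 0.028), Nfil3, which opposes these factors at the same sites, by 1.07 ± 0.25 (adjusted p = 0.043, call lost in 12 of 21 alternatives), and Ciart, a repressor of CLOCK and BMAL1, by 0.94 ± 0.19 (adjusted p = 0.024). Ciart was low, at 2.06, 1.60, 3.06 and 2.09 CPM at ZT8 and 0.917, 0.488, 0.588 and 0.637 CPM at ZT20. Between ZT4 and ZT16 it was at 0.15 (adjusted p = 0.51).

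The other core clock genes did not pass. Bhlhe40, a repressor that food and light can induce, was at 1.16 ± 0.29 (adjusted p = 0.052) and Bhlhe41 at 0.84 ± 0.27 (adjusted p = 0.099). Nr1d1, which encodes REV-ERBα, was at 46.3, 75.7, 78.1 and 75.5 CPM at ZT8 and 43.5, 45.9, 54.9 and 37.9 CPM at ZT20 (0.57 ± 0.18, adjusted p = 0.11), and at 0.75 without replicate 1 of ZT8 (adjusted p = 0.0057). Of the activators, Arntl was at 0.36 ± 0.16 (adjusted p = 0.22), and at 0.50 without replicate 1 of ZT8 (adjusted p = 0.031), Clock at 0.07 ± 0.13 (0.79) and Npas2 at 0.36 ± 0.27 (0.49). The repressors did not pass either, with Per1 at 0.01 ± 0.22 (0.99), Per2 at -0.12 ± 0.20 (0.75), Cry1 at -0.14 ± 0.13 (0.58) and Cry2 at -0.07 ± 0.16 (0.85). Per3 (-0.53 ± 0.19, 0.14) and Rora (-0.51 ± 0.13, 0.061) were lower at ZT8 on average without passing. With replicate 1 of ZT8 left out, both passed as lower (adjusted p = 0.043 and 0.031). Bhlhe40 (0.036) and Bhlhe41 (0.048) then passed as higher. So did the output gene Tspan4 (0.025), while Por (0.021) passed as lower. The values that follow are with all 8 libraries. Of the output genes, Por was at -0.87 ± 0.23 (0.060), Usp2 at 0.56 ± 0.22 (0.18), Tspan4 at 0.32 ± 0.19 (0.36), Nampt at -0.42 ± 0.17 (0.20), Tef at -0.16 ± 0.12 (0.48) and Wee1 at -0.09 ± 0.28 (0.88).

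Which of these differences follow feeding and which follow clock time was asked against NRF. The feeding-aligned difference is the DRF difference (ZT8 minus ZT20) minus the NRF difference taken fed minus fasted (ZT20 minus ZT8), and it is 0 for a gene that follows food alike in both regimens. It passed for 727 of 14324 genes (5.08%), 334 positive and 393 negative, or 709 and 252 with library sizes from total reads. The clock-time-aligned difference subtracts the NRF difference in the same clock order (ZT8 minus ZT20), and it passed for 4194 genes (29.3%), 2356 positive and 1838 negative. Both fits used all 16 libraries. The first count was 1096 without replicate 1 of DRF ZT8, 31 without replicate 2 of each of the 4 groups and 72 without replicate 4 of each, and 455 with no filter on low values; the second was 2284 without replicate 4 of each.

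The NRF libraries are other libraries, so the fed-minus-fasted differences of the regimens can be set side by side. Of the 767 genes called in DRF 763 were tested in NRF, and 676 (88.6%) had the same fed-minus-fasted sign there, against 58.4% of all 14239 genes tested in both. Called with the same sign in NRF were 517, which is 67.8% of the DRF calls and 9.93% of the 5208 NRF calls. The other 27 genes called in both had the opposite sign. The plot of fed-minus-fasted differences in both regimens shows Pck1 and Hcar1 nearer the diagonal and Nr1d1, Dbp, Arntl and Cry1 farther from it.

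**Figure D3:**
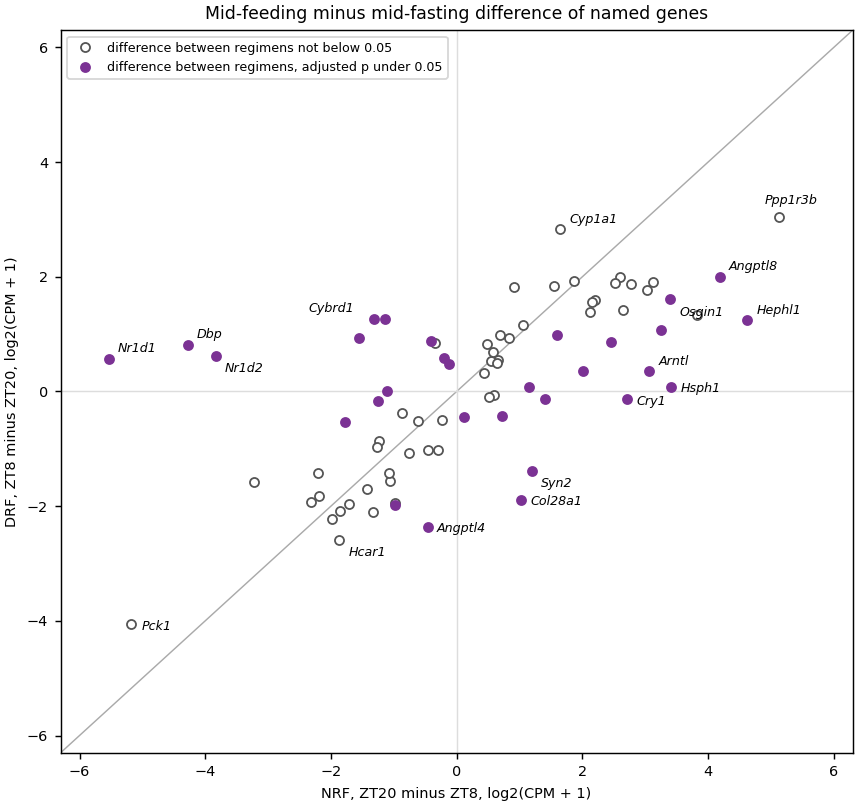
Fed-minus-fasted difference in log2(CPM + 1) of the named genes, NRF (ZT20 minus ZT8) on the x axis and DRF (ZT8 minus ZT20) on the y axis, with the line of equality in grey. Filled points passed the test of the feeding-aligned difference; Pck1 and Hcar1 were not among them, while Nr1d1, Dbp and Nr1d2 lie far to its left with DRF values of 0.57 to 0.80 and NRF values of -5.54 to -3.83.

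Pck1 differed by -4.06 in DRF and by -5.18 in NRF, where ZT8 held 2000, 2900, 932 and 3280 CPM and ZT20 held 65.8, 49.9, 39.4 and 73.3 CPM. Its feeding-aligned difference was 1.12 ± 0.76 (adjusted p = 0.36) and its clock-time-aligned difference -9.24 (adjusted p = 5.7e-07), the most negative of the genes ranked. Ppp1r3b had the largest positive clock-time-aligned difference, 8.18, with 3.05 in DRF and 5.13 in NRF. After it came Angptl8 (6.18), Hephl1, a copper-binding ferroxidase (5.88), Scd2 (5.16), Mid1ip1 (5.04) and Osgin1 (5.00), and on the negative side Nr1d1 (-4.97), the imprinted gene Peg3 (-4.80), Hcar1 (-4.45) and Net1 (-4.25). This difference is the sum of the fed-minus-fasted differences of the regimens, so genes ranked by it tend to share their sign.

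Clock genes had the largest positive feeding-aligned differences. Nr1d1 was at 244, 296, 229 and 249 CPM in NRF at ZT8 and at 4.41, 4.59, 4.82 and 4.11 CPM at ZT20, beside the 37.9 to 78.1 CPM of all 8 DRF libraries. Every DRF library lay between the 2 NRF groups, and the feeding-aligned difference was 6.10 ± 0.21 (adjusted p = 5.7e-11). Dbp was at 156, 186, 228 and 143 CPM in NRF at ZT8 and at 8.50, 6.09, 11.5 and 7.17 CPM at ZT20 (5.08 ± 0.24, adjusted p = 2.8e-09), and Nr1d2 had the next value (4.45, adjusted p = 4.8e-10). Negative were Cry1 (-2.85, adjusted p = 4.9e-07) and Arntl (-2.71, adjusted p = 1.8e-06). In Arntl the NRF libraries held 2.31 to 3.67 CPM at ZT8 and 30.9 to 36.6 CPM at ZT20, and the DRF libraries 13.1 to 23.0 CPM at either time. Of 15 core clock genes 11 passed the feeding-aligned difference, 5 of them positive, and of 9 clock output genes 5 passed, beside 5.08% of all genes.

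Over the 7 time points the range of group means was narrower in DRF than in NRF for these genes, as a description. It was 0.74 for Nr1d1 in DRF and 5.54 in NRF, 1.5 and 5.44 for Dbp, 1.44 and 4.62 for Arntl, and 1.02 and 2.72 for Cry1. For Pck1 it was 4.26 and 5.18, with the highest mean at ZT24 in DRF and at ZT8 in NRF. For Ppp1r3b it was 4.12 and 5.13, highest at ZT4 in DRF and at ZT20 in NRF. The plot of levels over the day shows the narrow DRF traces of these clock genes beside the wide DRF traces of Pck1, Ppp1r3b and Angptl8, whose highs and lows fall at other times than in NRF.

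**Figure D4:**
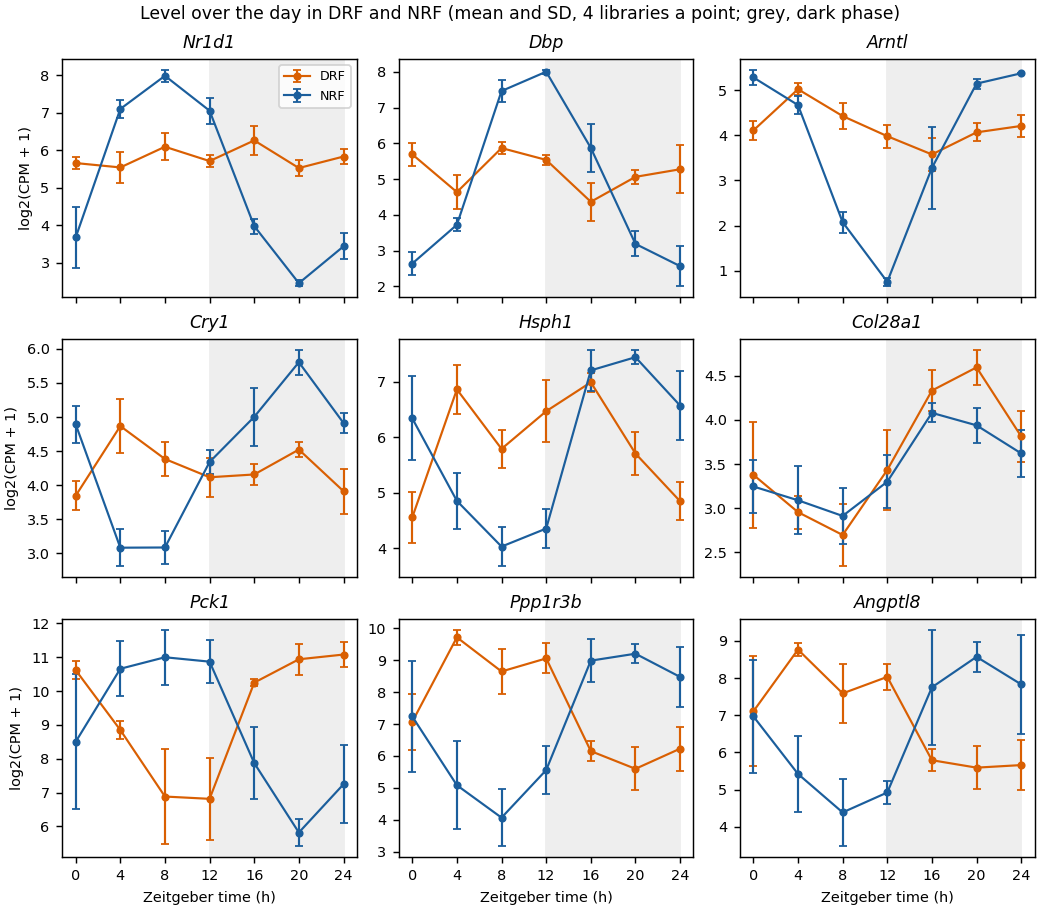
Mean log2(CPM + 1) with its SD (4 libraries a point) at 7 Zeitgeber times in DRF (orange) and NRF (blue), with the dark phase in grey. Nr1d1 spans 0.74 in DRF and 5.54 in NRF, Pck1 4.26 and 5.18, and Col28a1 is highest in the dark in both regimens.

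Some genes followed clock time in both regimens. Col28a1 was at 3.78, 7.66, 5.66 and 5.44 CPM at ZT8 and 20.2, 23.0, 28.2 and 21.8 CPM at ZT20 in DRF, and at 4.52 to 7.97 and 12.0 to 17.3 CPM in NRF. It was higher in the dark under both schedules, fasted in one and fed in the other, and its feeding-aligned difference was -2.92 ± 0.26 (adjusted p = 1.0e-05). Cybrd1, a ferric reductase, was higher in the light under both, with 13.5, 37.9, 15.6 and 17.8 CPM at ZT8 against 7.08 to 7.97 CPM in DRF (feeding-aligned difference 2.59 ± 0.35, adjusted p = 0.0010). Syn2, a synapsin (-2.58), and Mfap2, a microfibril protein (2.41), had the same pattern of sign with DRF adjusted p-values of 0.052 each. Without replicate 2 of each group the adjusted p was above 0.05 for Syn2 and Mfap2, and without replicate 4 of each for Syn2.

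Heat shock genes differed between the regimens as well. In DRF 3 of 20 heat shock and cold-inducible genes were higher at ZT8 and none was lower, with a median of 0.08. Hspa1a and Hspa1b, near-identical inducible HSP70 genes whose reads the counting could split, differed by 0.83 and 0.70 (Hspa1a lost its call in 10 of 20 alternatives), and Rbm3, a cold-inducible RNA-binding protein, by 0.58. In NRF the median, ZT20 minus ZT8, was 0.84. The feeding-aligned difference passed for 15 of the 20, 13 of them negative, beside 5.08% of all genes. Hsph1, an HSP110 chaperone, was at 54.4, 39.0, 69.1 and 59.5 CPM at ZT8 and 45.8, 53.7, 72.7 and 38.5 CPM at ZT20 in DRF, fully overlapping. Hsph1 was not flat over the day in DRF. Its group means spanned 2.44 there, from 23.4 CPM at ZT0 to 127 CPM at ZT16, and 3.42 in NRF. In NRF it was at 12.8 to 22.2 CPM at ZT8 and 152 to 187 CPM at ZT20 (feeding-aligned difference -3.33 ± 0.29, adjusted p = 8.7e-06). Cirbp, the other cold-inducible RNA-binding protein, went the other way (1.62, adjusted p = 0.0064). Of 20 endoplasmic reticulum chaperones none passed within DRF, and 7 passed the feeding-aligned difference, all negative, with Hspa5 at -1.12.

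The de novo lipogenesis median, fed minus fasted, was -0.06 in DRF and 2.0 in NRF, and the feeding-aligned difference passed for 1 of 16 genes, Acacb (-1.86, adjusted p = 0.028), beside 5.08% of all genes. Fasn was at 16900, 971, 32200 and 7120 CPM in NRF at ZT8 and 23800 to 31300 CPM at ZT20, so the fasted NRF libraries spread widely, and the difference of -1.94 ± 1.19 did not pass (adjusted p = 0.31). For cholesterol synthesis the medians were 0.40 and 1.87, and 5 of 20 passed, all negative, among them Cyp51 (-2.51) and Idi1 (-1.99). Mvd, Sc5d, Hsd17b7 and Sqle did not pass. Over the day their group means spanned 2.68, 1.85, 2.19 and 2.07 in DRF and 3.03, 2.20, 2.30 and 2.65 in NRF. In DRF each was highest at ZT4 and lowest at ZT0, so ZT8 minus ZT20 did not take in their full range. Hephl1 was at 52.7, 52.7, 94.8 and 134 CPM at ZT8 and 18.7, 35.8, 90.4 and 16.6 CPM at ZT20 in DRF. It spanned 0.381 to 8.0 CPM fasted and 77.1 to 105 CPM fed in NRF, and its feeding-aligned difference was -3.38 (adjusted p = 0.021). That call was lost in 3 of 10 alternatives, with an adjusted p of up to 0.273.

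Angptl4 fell by 2.36 at ZT8 in DRF, while in NRF, fed minus fasted, it was at -0.46 (adjusted p = 0.13), with 184 to 383 CPM at ZT8 and 166 to 255 CPM at ZT20. Other NRF time points lay farther apart. Over the day its NRF group means spanned 1.52, from 476 CPM at ZT4, fasting, to 160 CPM at ZT16, feeding. In DRF they spanned 2.46. The feeding-aligned difference was -1.90 (adjusted p = 0.0096). It was also the only called member of 13 glucocorticoid targets, whose median was -0.20 between ZT8 and ZT20 (-0.04 without replicate 1 of ZT8).

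At ZT4 and ZT16, the other fed and fasted pair under DRF, 5199 of the 14381 genes passed (36.2%), 2948 higher at ZT4 and 2251 lower, or 1998 and 2946 with library sizes from total reads. The count was 3332 without replicate 3 of each group. Of the 767 genes called between ZT8 and ZT20, 656 (85.5%) had the same sign there, against 60.3% of all genes tested. Called with the same sign were 467, which is 60.9% of the ZT8 to ZT20 calls and 8.98% of the ZT4 to ZT16 calls. Ppp1r3b (3.56) and Angptl8 (2.97) were higher at ZT4, and Angptl4 (-1.99), Txnip (-1.92) and Pck1 (-1.40) lower, each with an adjusted p below 0.05. Cyp1a1, at 2.84 between ZT8 and ZT20, was at -0.78 between ZT4 and ZT16 (adjusted p = 0.11), and Hcar1, at -2.59, was at -0.22 (adjusted p = 0.17). List medians did not all keep their sign. For fatty acid oxidation the median was 0.20 between ZT4 and ZT16, with 5 of 20 genes of the same sign as between ZT8 and ZT20. Fatty acid uptake (0.13), lipolysis (0.15) and branched-chain amino acid catabolism (0.19) also had positive medians there. Cholesterol synthesis was at 0.15 (13 of 20 of the same sign) and ribosome biogenesis at 0.44 (18 of 20).

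The lists not yet described held few calls, beside 5.33% of all genes tested. Slc3a2, the heavy chain of amino acid transporters, was the 1 gene called among 16 of the amino acid response (0.99 ± 0.13, adjusted p = 0.0055), where 4 were higher without replicate 1 of ZT8. Of 12 adipokines Apln was higher (0.85 ± 0.20, adjusted p = 0.042) and Nrg4 lower (-1.02 ± 0.24, adjusted p = 0.042), and Lep, leptin, spread over 473, 775, 2800 and 1130 CPM at ZT8 and 284, 351, 625 and 720 CPM at ZT20 (1.17 ± 0.52, adjusted p = 0.22). Klf10 (-0.50) and Klf4 (-0.44) were the called members of 16 PPAR, C/EBP and KLF factors, both lower. They lost the call in 13 and 12 of 21 alternatives, and without replicate 1 of ZT8 the list had 3 higher and 3 lower. Fosl2, an AP-1 subunit, was the only one of 17 immediate early genes (0.98 ± 0.13, adjusted p = 0.0057), where 3 were higher without replicate 1 of ZT8. Ppm1k, the phosphatase that activates branched-chain ketoacid dehydrogenase, was the only one of 21 genes of branched-chain amino acid catabolism (-0.96 ± 0.17, adjusted p = 0.015), whose median was -0.40 (-0.19 without that library). Among 20 genes of ribosome biogenesis 18 differences were positive, against 7632 of all 14381 genes tested. The list median was 0.32 (0.18 without replicate 1 of ZT8, the library with the raised proliferation markers), and Polr1a was the called one (0.50 ± 0.11, adjusted p = 0.037). The called were 2 without replicate 1 of ZT8, and Polr1a lost its call in 9 of 21 alternatives. So did Akt1, Apln, Aqp7 and Cpt1a, and Nrg4 in 10, Adrb3 in 11 and Insig1 in 12 of 21. Adrb3, given above, was the 1 called of 12 thermogenic genes. Without replicate 1 of ZT8 that list had 1 higher and 1 lower, and its median went from -0.39 to -0.13.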

How the data were processed

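Visceral adipose tissue RNA was sequenced as polyA libraries, and per the labels HISAT2 2.0.5, featureCounts 1.5.0-p3 and mm10 were used, as named in the submitters' processing notes. The deposited values are named TPM by the authors, but they are a score and not linear TPM: times exon length, each value is a library's constant times the logarithm of 1 plus reads over an effective library size. How the authors scaled them is not given in the sources used here. Reads and effective library sizes were therefore recovered from the steps of these values in all 56 libraries and 25939 genes (99.99% of 1262086 values up to 10000 reads lay within 0.02 of a whole number). Exon lengths came from GENCODE M21 on GRCm38 for 25053 genes and from the values for 881; 4 very abundant genes could not be checked, and Scd1 was not resolved and is not analysed here. The depth was 31165897 to 36834732 recovered reads in the 8 libraries. The kit does not mark strand, so reads of overlapping antisense genes cannot be told apart.

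Groups came from the labels. limma 3.58.1 in R 4.3.3 (trend, two-sided, Benjamini-Hochberg) was fitted to log2(CPM + 1) of genes with a mean of at least 1 CPM, on the 8 DRF libraries, on 16 libraries for the differences from NRF, and on 8 others for ZT4 and ZT16. The procedure was tested on simulated data. Named were the 12 largest rises and 12 largest falls among coding genes called with and without ZT8 replicate 1, with a mean log2(CPM + 1) of at least 2 and groups apart, up to 4 called genes of each of 25 function lists, all clock genes, and 6 genes each way for each difference from NRF. Some genes that meet this rule are not reported here. The genes and lists were chosen with earlier results of these data known. Alternatives changed the scaling, pseudocount, filter, variance model, libraries in the fit, replicate block and scale of the values, and left out libraries.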

Additional observations from a re-analysis of the deposited data

Results flagged for a closer look

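Of 168 groups of 4 DRF libraries examined for the named genes, 11 held a library far from the other 3, where 1 in 20 would be 8.4. In DRF ZT8 replicate 1 these were Angptl4 at 61.3 CPM, Arntl at 15.1 CPM, Nr1d1 at 46.3 CPM, Wee1 at 24.6 CPM, Aqp7 at 39.8 CPM and Irs2 at 11.2 CPM. In DRF ZT8 replicate 3 they were Tef at 170 CPM and Syn2 at 14.7 CPM. In DRF ZT20 replicate 2 they were Fam13a at 616 CPM, Pde3b at 682 CPM and Hspa1b at 8.17 CPM.

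The fed-minus-fasted difference itself differed between DRF and NRF, by the limma contrast, in 727 genes. The differences were positive for Nr1d1 (6.10), Dbp (5.08), Nr1d2 (4.45), Cybrd1 (2.59) and Mfap2 (2.41). They were negative for Hephl1 (-3.38), Hsph1 (-3.33), Col28a1 (-2.92), Cry1 (-2.85), Arntl (-2.71) and Syn2 (-2.58).

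The ZT8-minus-ZT20 difference differed between the regimens in 4194 genes. It was higher in DRF for Ppp1r3b (8.18), Angptl8 (6.18), Hephl1 (5.88), Scd2 (5.16), Mid1ip1 (5.04) and Osgin1 (5.00). It was lower in DRF for Pck1 (-9.24), Nr1d1 (-4.97), Peg3 (-4.80), Hcar1 (-4.45) and Net1 (-4.25).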

How the results depend on the processing

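Leaving out 1 library at a time moved the 767 calls between ZT8 and ZT20 to 207 to 1440, and leaving out replicates moved the feeding-aligned count of 727 to 31 to 1096, the clock-time-aligned count of 4194 to 2284 to 5114 and the ZT4 to ZT16 count of 5199 to 3332 to 4332. The count of 767 became 394 on the deposited values plus 1, 2638 with one fit over all DRF libraries and 3099 with one fit over all 56 libraries, and the feeding-aligned count became 455 with no filter on low values. The cause was not tested. No named call reversed in any alternative: 24 of 56 kept their call between ZT8 and ZT20 in all of them, as did 8 of 12 feeding-aligned and 12 of 12 clock-time-aligned differences. With total reads as library sizes the median feeding-aligned difference moved from -0.02 to 0.18, and 5 of 25 list medians between ZT8 and ZT20 changed sign under some scaling, those of de novo lipogenesis, NADPH supply, glucose uptake and glycogen, glycolysis, and the PPAR, C/EBP and KLF factors. Replicate numbers are shared between groups, but not all same-numbered pairs deviated together (correlations of 0.319, 0.00873, 0.251 and -0.134), and not every sample correlated best with its own number. With the replicate block the counts were 652, 1398, 4680 and 5520 in the order given.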

Other observations

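The following genes were chosen after their values were seen, from the 27 called in both regimens with opposite fed-minus-fasted signs (by construction higher at the same clock time under both schedules) and from the marker lists. Fmo2, a flavin-containing monooxygenase, held 45.1, 51.3, 54.6 and 52.8 CPM at DRF ZT8 and 133, 148, 125 and 128 CPM at ZT20 (-1.37 ± 0.10, adjusted p = 0.00070). In NRF its difference, ZT20 minus ZT8, was 0.82, so it was higher in the dark under both. Prodh, proline dehydrogenase, was at -1.05 in DRF and 1.04 in NRF.

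Star, which carries cholesterol into mitochondria for steroid synthesis, was higher in the light under both, with 12.2, 15.5, 15.1 and 16.5 CPM at DRF ZT8 against 5.82, 5.31, 7.53 and 5.19 CPM at ZT20 (1.19 ± 0.14, adjusted p = 0.0038) and -0.85 in NRF. It was the only called gene of the ovary marker list. The 7 of its 9 members with values summed to 18.3 to 19.3 CPM at ZT8 and 7.53 to 10.5 CPM at ZT20. Star itself is in these sums and made up most of each at ZT8. The part of ovary in this was not tested. Col1a1, a fibrillar collagen chain of the progenitor list, held 671, 524, 308 and 424 CPM at DRF ZT8 and 226, 252, 223 and 233 CPM at ZT20 (0.99 ± 0.22, adjusted p = 0.033), with -0.85 in NRF. Emcn, endomucin, was the only called gene of 6 endothelial markers, at 42.1, 53.2, 38.8 and 55.1 CPM against 33.0, 27.4, 33.3 and 28.8 CPM (0.60 ± 0.13, adjusted p = 0.035). Unlike the others it followed feeding in sign, with 0.54 in NRF.

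No marker of the mesothelial, macrophage, B lymphocyte, T lymphocyte, red cell and neutrophil, skeletal muscle, pancreas or brown adipocyte list passed between ZT8 and ZT20. Of the liver list Cyp2e1 did. With replicate 1 of ZT8 left out, 1 mesothelial marker was higher, and still none passed in the lists from macrophage to brown adipocyte.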
